A study of Mus musculus with 12 samples.

Results

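The changes described here are those between proliferating C2C12 myoblasts and the myotubes formed from them, across all genes on a whole-genome array. C2C12 is an established mouse myoblast line that divides in rich medium and, when serum is lowered, leaves the cell cycle and fuses into multinucleated contractile myotubes. The comparison uses 6 of the 12 arrays of the study, 3 of myoblasts and 3 of myotubes, chosen by their labels; the other 6 arrays, 3 of extensor digitorum longus (EDL) and 3 of soleus from male CD1 mice aged 3 months, entered the fit's estimate of spread, the filter on dim probes and the choice of a probe for each gene, and are described in their own right only after the results. Myoblasts were kept in 10% fetal bovine serum and taken at about 50% confluence. Myotubes came from cells grown to 90% confluence, moved to 2% horse serum and harvested after 96 h; they were detached with diluted trypsin and left for 30 min in growth medium, so that mononucleated cells could reattach, and the floating cells were collected. The groups thus differ at once in differentiation, serum, density, detachment and selection of floating cells, and these cannot be told apart. No genetic change was made in either group, and the labels do not say whether the 3 samples of a group came from separate cultures. The p-values rest on a spread pooled within all 4 groups of arrays, adult muscle included. The spread within the culture groups may be technical.

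In the embryo and in regenerating muscle, myoblasts are committed by the basic helix-loop-helix factors Myf5 and MyoD. Myogenin and the MEF2 proteins then switch on the genes of the contractile apparatus, while the Id proteins and other repressors hold the program back in dividing cells. Withdrawal from the cycle rests on the cyclin-dependent kinase inhibitor p21 and the retinoblastoma protein, and fusion needs the membrane proteins Myomaker and Myomixer.

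Each of 3 slides carried 1 array of every group, and the replicate number is the slide. Each group also sat at its own place on the slide, which cannot be told apart from the group. A level below is the log2 of the processed signal after the 75th percentile of each array was set to a common value of 9.71, in log2 units; a difference of 1 is a 2-fold change. That percentile lay between 1065 and 1649 intensity units on the culture arrays before scaling, between 61.3% and 70.8% of probes were well above background on them, and no spot was saturated. The marker genes matched the labels. All 6 markers of dividing myoblasts were above background on all myoblast arrays and lower in myotubes, their summed level going from between 15.8 and 15.9 to between 10.03 and 10.14. They stayed above background on every myotube array. All 8 myotube markers were higher in myotubes. Some markers of other cells were measured above background throughout both culture groups, 4 of 6 of fibroblasts, 2 of 4 of macrophages and leukocytes and 1 of 4 of adipocytes; of 4 smooth muscle markers 3 were on all myoblast and 2 on all myotube arrays, and of 4 endothelial markers 1 and 0. In contrast, Thy1 of fibroblasts, Rgs5 of mural cells, Adipoq, Plin1 and Cfd of adipocytes, Cdh5 and Emcn of endothelium and Ptprc of leukocytes were above background on no array of either culture group.

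Over 18868 genes tested with limma, 6686 (35.4%) were called, that is, they had an adjusted p under 0.05 and a difference of at least 1 log2 unit. Of these, 3634 (19.3% of genes tested) were higher in myotubes and 3052 (16.2%) lower; without the limit on size, 63.7% of genes had an adjusted p under 0.05. Below, rose and fell are used of called genes, and a gene given as not called missed either limit. Counts over gene lists are to be read against these shares of all genes: a list called at about the same rate does not stand apart from the rest. Where a call was lost under spike-in scaling, normexp background correction, quantile normalization, the authors' values or the mean over probes, that is said beside the gene. The median difference over all genes was 0.06, and the 3 myotube arrays lay wholly above or below the 3 myoblast arrays for 68.9% of genes. The direction split depended on the scaling: with the spike-in RNAs as the reference, which lowers the median of all genes by 0.37, the counts were 2357 higher and 4026 lower, and the medians of 12 of the 43 gene lists described below, those between 0 and 0.37, turned negative. With quantile normalization the counts were 3275 higher and 3272 lower, and with the authors' values, where 18351 genes were tested, 3167 and 3204. Large changes leaned to the higher side. Differences of at least 4 log2 units were found for 560 genes that rose and 296 that fell, and differences of at least 8 for 40 that rose and 1 that fell. These counts use measured differences, also for genes below background in 1 group, whose lower bounds can be smaller. Dmd, for example, counts among the 40 at 8.68, while its lower bound is 7.86. A further view is detection. By the probe used, 481 genes were above background on at least 1 myotube array, and by no probe on any myoblast array. The reverse held for 418 genes. Genes not brighter than the other group's detection limit were left out, and 439 and 345 of those counted were called. The genes were selected on the same levels that the calls use, so their being called adds no support. The lowest level well above background was 2.08 to 3.38 on myotube arrays and 1.56 to 2.10 on myoblast arrays, so the 2 counts are not on equal terms.

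**Figure D1:**
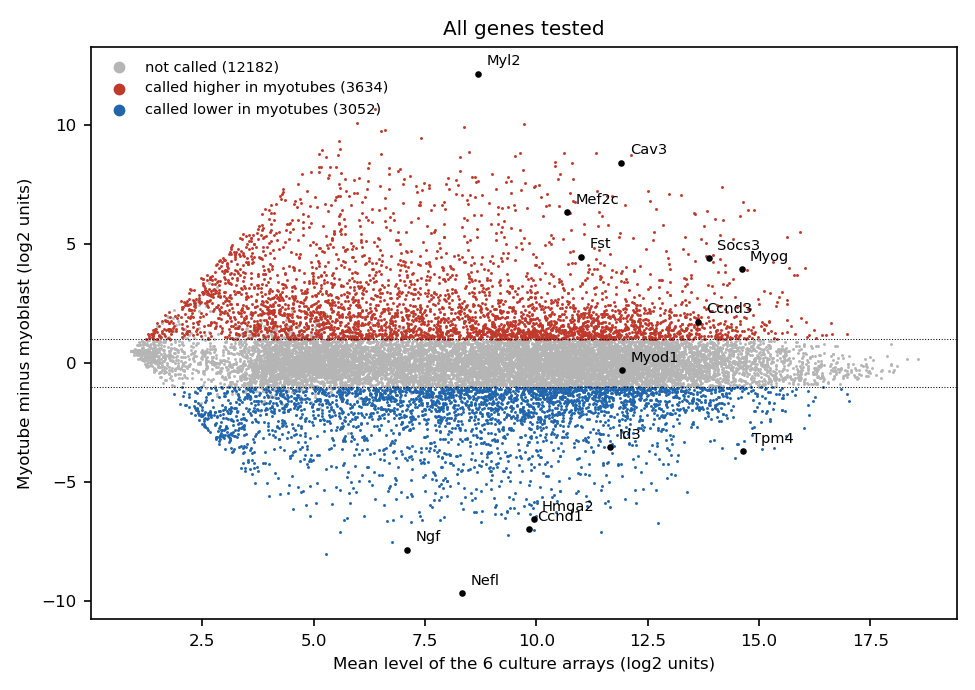
Difference between myotubes and myoblasts (log2 units, vertical) against the mean level of the 6 culture arrays (log2 units, horizontal), with 1 point per gene; red points are the 3634 genes called higher, blue points the 3052 called lower, grey points the rest, and dotted lines mark a difference of 1. The spread of differences is widest at middle levels, with Myl2 at the top and Nefl at the bottom, and Myod1 lies inside the grey band.

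The myogenic factors split into a group that rose, a group that fell and a group near 0. Of 20 myogenic and MEF2 factors measured, 8 rose, 4 fell and 8 were not called. Myog, which encodes myogenin, stood at 12.67, 12.69 and 12.55 on the myoblast arrays and at 16.52, 16.65 and 16.57 on the myotube arrays. The groups were far apart and each varied little, and the rise was 3.95 ± 0.08 (SE; adjusted p = 9.2e-11, limma). Mef2c, a MADS-box partner of the myogenic factors, was at 7.32, 7.84 and 7.41 in myoblasts and at 13.66, 14.14 and 13.80 in myotubes. Its rise of 6.34 ± 0.18 was the largest of the list. Its relatives Mef2a and Mef2d rose by 1.67 and 1.64, whereas Mef2b differed by 0.67 with overlapping arrays. Myf6, the factor of mature fibres, rose by 3.30 ± 0.16, and the TEA-domain factor Tead4 by 2.70 ± 0.12.

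Myod1, which encodes MyoD, was not called. Its levels were 12.22, 12.07 and 11.93 in myoblasts and 11.93, 11.76 and 11.68 in myotubes. The difference was -0.28 ± 0.11 with overlapping groups, and it was negative on each of the 3 slides. Myf5, the other determination factor, fell from 9.19, 8.88 and 8.41 to 7.16, 6.94 and 6.59, a difference of -1.93 ± 0.29. The values of these 2 factors lay apart, but the difference between them was not tested. Tcf3, which encodes the E-protein partners of the myogenic factors, fell by 1.59, while its relative Tcf4 rose by 1.17 and Tcf12 differed by -0.32. Among homeobox factors and their cofactors, which act upstream of the myogenic genes, Eya1 fell by 1.57, Eya4 rose by 1.01, and Six4 (-0.29) and Eya3 (0.31) were not called. Vgll2, a muscle cofactor of the TEA-domain factors, fell by 1.23, with the second myotube array lowest at 9.29 (-0.87 and not called without it). The rise of Eya4 was not called with spike-in scaling or normexp, nor that of Tcf4 with spike-in scaling. Srf (-0.49) and Myocd (-0.83) were not called, and Myocd was above background, by any probe, on 1 myoblast array and no myotube array.

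**Figure D2:**
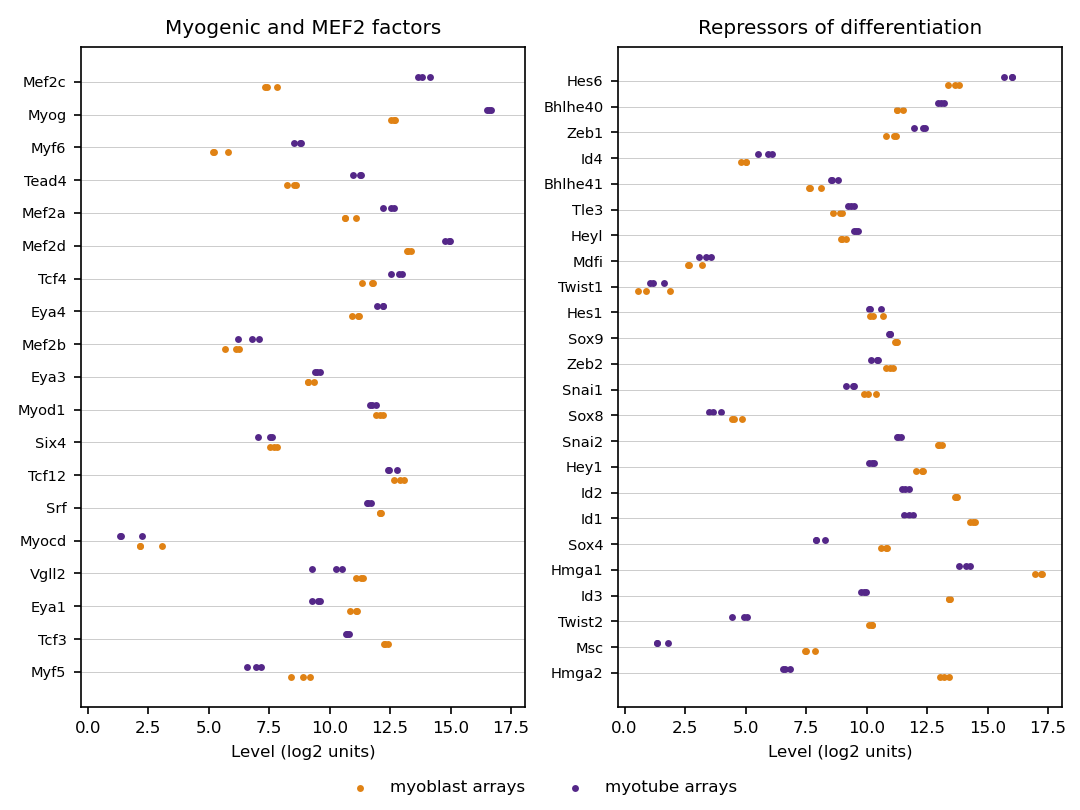
Level on each array (log2 units, horizontal) of 19 of the 20 myogenic and MEF2 factors (left) and the 24 repressors of differentiation (right), ordered by difference; orange points are the 3 myoblast arrays and purple points the 3 myotube arrays. Mef2c and Myog separate at the top left and Hmga2 and Msc at the bottom right, while the points of Myod1 touch.

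Promoters of Myog and of the acetylcholine receptor gene Chrna1 are shown because both genes rose and both are textbook targets of the myogenic factors, and that of the proliferation marker Mki67 because it fell with the cell cycle genes described further on. Each is 300 bases, 250 before and 50 after the RefSeq start, printed 5′ to 3′ on the gene's strand from GRCm38.p6. They lie at chr1:134289754-134290053 (plus strand, Myog), chr2:73580289-73580588 (minus strand, Chrna1) and chr7:135716330-135716629 (minus strand, Mki67). Capitals mark the letters CANNTG, the E-box bound by myogenic factors, in Myog and Chrna1; in Mki67 they mark TTTGAA (the cell cycle homology region, CHR), CCAAT, and the E2F letters TTCCCGC and its forms with CG, GC or GG in the middle, each searched on both strands.
Myog: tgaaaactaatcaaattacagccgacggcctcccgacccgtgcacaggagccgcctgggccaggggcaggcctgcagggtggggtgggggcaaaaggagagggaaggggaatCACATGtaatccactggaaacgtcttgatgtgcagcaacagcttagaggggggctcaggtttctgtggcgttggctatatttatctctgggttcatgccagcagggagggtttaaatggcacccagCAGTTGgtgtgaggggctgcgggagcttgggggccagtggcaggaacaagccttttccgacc
Chrna1: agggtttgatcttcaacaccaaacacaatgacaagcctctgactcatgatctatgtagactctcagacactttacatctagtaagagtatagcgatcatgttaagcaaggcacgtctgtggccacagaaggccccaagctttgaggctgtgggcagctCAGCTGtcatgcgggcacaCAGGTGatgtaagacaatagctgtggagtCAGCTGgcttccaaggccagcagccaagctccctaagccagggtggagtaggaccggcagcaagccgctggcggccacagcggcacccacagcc
Mki67: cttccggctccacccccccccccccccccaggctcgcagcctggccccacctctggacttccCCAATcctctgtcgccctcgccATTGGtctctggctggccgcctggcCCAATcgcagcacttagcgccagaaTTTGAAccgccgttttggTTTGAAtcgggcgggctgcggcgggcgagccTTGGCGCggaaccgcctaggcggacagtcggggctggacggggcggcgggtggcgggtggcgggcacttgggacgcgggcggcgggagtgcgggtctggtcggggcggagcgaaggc
Counted from the start, the Myog window holds E-boxes beginning at -138 and -12, and the Chrna1 window holds them at -92, -73 and -44, of which the first and last read CAGCTG. Both windows were also searched for the letters of a MEF2 site, and neither held a match to the pattern used. The Mki67 window holds CHR letters at -116 and -98, an E2F match at -67 and CCAAT letters at -188, -166 and -141. The window of Ccne1, the cyclin taken by the same rule, holds none of these 3 motifs and is not printed.

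A RefSeq promoter was listed for 12038 of the 18868 genes tested. Shares are given for promoters of genes called higher, of genes called lower and of all genes tested, in that order. The letters CAGCTG, a subset of CANNTG, stood in 20.3%, 14.3% and 15.6%; among genes that rose by at least 4 log2 units the share was 26.4%. CANNTG itself stood in 69.9%, 61.7% and 65.0%, and in 80.8% of genes that rose by at least 4. A MEF2 site stood in 3.18%, 1.58% and 1.94%, and in 9.59% of genes that rose by at least 4. E2F letters stood in 11.9%, 22.1% and 15.6%, and in 26.9% of genes that fell by at least 4. The CHR letters stood in 11.4%, 16.1% and 12.7%, and in 35.6% of genes that fell by at least 4. CCAAT letters stood in 38.8%, 42.5% and 38.5%, and in 53.8% of genes that fell by at least 4. In the mitotic list 19 of 27 promoters (70.4%) held CHR letters and 21 (77.8%) CCAAT letters. The TEA-domain letters CATTCC stood in 14.5%, 11.6% and 12.5%, TATAAA in 9.59%, 8.51% and 8.95%, and the CArG box bound by SRF in 1.32%, 1.73% and 1.35%. Over all 32851 promoters listed, tested or not, the shares were 16.3% for CAGCTG, 72.3% for CANNTG, 3.19% for MEF2, 9.57% for E2F, 17.9% for CHR, 37.4% for CCAAT, 14.7% for CATTCC, 13.6% for TATAAA and 1.63% for the CArG box. These are shares of matching letters and were not tested.

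Of 24 repressors of myogenic differentiation measured, 10 fell, 3 rose and 11 were not called (median difference -0.68). Hmga2, a chromatin protein of embryonic and dividing cells, went from 13.02, 13.40 and 13.21 to 6.63, 6.84 and 6.54, a fall of 6.54 ± 0.22 on the log2 scale that separated the groups by more than any spread within them. The helix-loop-helix repressors went in both directions. Id3, which sequesters E-proteins, fell by 3.54 ± 0.08, Id1 by 2.65 and Id2 by 2.10, whereas Id4 differed by 0.89 and was not called. Twist2 fell by 5.39, and Msc, which encodes musculin, fell from 7.88, 7.45 and 7.49 to below background on all myotube arrays, at least 29.2-fold lower. Sox4 (-2.72), Hey1 (-2.01) and Snai2 (-1.68) also fell. The 3 that rose were Hes6 (2.29), known as an antagonist of Hes1 that promotes differentiation, Bhlhe40 (1.74) and Zeb1 (1.17, not called with spike-in scaling); Hes1 itself differed by -0.09 with overlapping arrays.

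Notch signalling, which keeps muscle progenitors undifferentiated, showed 6 of 16 measured members lower and 3 higher. The receptors Notch2 and Notch3 fell by 2.18 and 1.54, the DNA-binding mediator Rbpj by 1.31, the ligand Jag1 by 1.26, and Lfng, a glycosyltransferase that modifies Notch, by 3.60. The ligand Dll1 (1.30), the ligand Dll4 (1.31) and the feedback inhibitor Nrarp (1.02) rose, but none of the 3 was called with spike-in scaling or with normexp. Nrarp was also lost with quantile normalization and the authors' values, and Dll4 without slide 2 (1.12; limma adjusted p = 0.088) or slide 3 (1.05; adjusted p = 0.065). The fall of Jag1 was not called with normexp. Notch1 differed by -0.57 and was not called.

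Markers of satellite and reserve cells, the undifferentiated cells that persist beside fibres and myotubes, went both ways: 5 of 19 fell, 4 rose and 10 were not called (median difference -0.01). Sdc3, a surface proteoglycan of satellite cells, fell by 3.39 ± 0.08, and Cd34 from 12.95, 12.72 and 12.31 to 9.59, 9.52 and 9.22. The hepatocyte growth factor receptor gene Met fell by 3.10, Vcam1 by 1.82 and Cxcr4 by 1.67. Pax7, the defining factor of satellite cells, was not called: it stood at 6.07, 6.27 and 6.48 in myoblasts and at 3.64, 5.21 and 6.11 in myotubes, where 2 of 3 arrays were above background, and its difference of -1.29 ± 0.72 (adjusted p = 0.14, limma) rested on the first slide. Spry1, an inhibitor of receptor tyrosine kinase signalling, rose by 4.15 ± 0.20, the laminin receptor subunit Itga7 by 1.86, and Megf10 by 1.35. Megf10 was not called with spike-in scaling and Cxcr4 not with normexp. Pax3 and Sox7 were above background in neither group.

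Genes of myoblast recognition and fusion were mixed, 11 of 39 rising and 8 falling (median difference 0.34). Mymk, which encodes Myomaker, stood at 9.82, 10.30 and 10.04 in myoblasts and at 14.60, 15.03 and 14.96 in myotubes. The groups did not come near each other, and the rise was 4.81 ± 0.48. Cav3, the caveolin of muscle membranes, had the largest rise of the list, from 7.50, 7.78 and 7.81 to 15.89, 16.23 and 16.26, or 8.43 ± 0.13. Dysf, which encodes the membrane repair protein dysferlin, rose by 5.16, and the adhesion molecule Ncam1 by 3.58. On the falling side were Kirrel (-3.28), an immunoglobulin-family adhesion protein, the actin regulator Wipf1 (-2.97), the exchange factor Dock1 (-2.07) and Adam12 (-2.98), a metalloprotease that 1 of 3 myotube arrays measured above background and that was not called with normexp. The junction protein Jam2 (-0.11) was not called.

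Genes of the contractile apparatus changed almost as a whole. Of 39 proteins of the Z-disc, M-band and titin filament measured, 37 rose (median difference 5.37). None was called lower with limma (0 at an unadjusted p under 0.05, 0 with normexp background correction). Myot, which encodes the Z-disc protein myotilin, was below background on all myoblast arrays and at 11.79, 11.72 and 11.59 in myotubes, at least 984-fold higher. Myoz2 rose from 6.18, 6.17 and 6.30 to 14.88, 15.13 and 15.09. Its groups were separated by more than 8 log2 units, while each spanned little. Actn2, the main sarcomeric alpha-actinin, rose by 7.65 ± 0.11, Tcap, the titin cap, by 7.24 and the myosin-binding protein Mybpc1 by 7.31, the last being measured on 2 of 3 myoblast arrays. The giant proteins titin (Ttn, 4.44) and nebulin (Neb, 6.66) rose too. Fhl1 (0.73) and Myoz3 (1.02 ± 0.50, with overlapping arrays and 2 of 3 arrays of each group above background) were not called.

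Thick and thin filament genes gave 28 that rose and 5 that fell of 35 measured (median difference 5.24). Myl2, the slow and cardiac regulatory light chain, had the largest difference of the whole comparison: 1.82, 2.30 and 3.69 in myoblasts, where 1 of 3 arrays was above background, and 14.63, 14.79 and 14.88 in myotubes, or 12.17 ± 0.37. The adult myosin heavy chains Myh2 and Myh4 rose by 10.03 ± 0.12 and 8.76 ± 0.11, the embryonic and atrial light chain Myl4 by 7.41 and fast troponin T, Tnnt3, by 7.06. The 5 that fell were Tpm4 (-3.69), Actg1 (-3.61), Actb (-2.71) and Myl6 (-1.60), which are non-muscle forms, and Tpm3 (-1.89). A second Tpm3 probe rose by 2.84 ± 0.19 and the mean over its probes was 0.47, so the direction of Tpm3 depended on the probe; this gene also encodes a tropomyosin of slow muscle. Close sequence similarity within the actins and the myosin heavy chains means that a probe can take up signal from a near copy, and such values are uncertain to that extent. Factors that fold and assemble sarcomeres rose in 16 of 27 cases and fell in 1 (median difference 1.64). The myosin chaperone Unc45b rose by 7.75 ± 0.07, the small heat shock proteins Hspb7 and Hspb3 by 8.06 and 7.61, the thin filament protein Klhl41 by 7.09 and the ubiquitin ligase Trim63 (MuRF1) by 6.99. Hspb6 fell by 1.49 (not called with normexp) and Hsp90aa1 differed by -0.88 without being called.

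**Figure D3:**
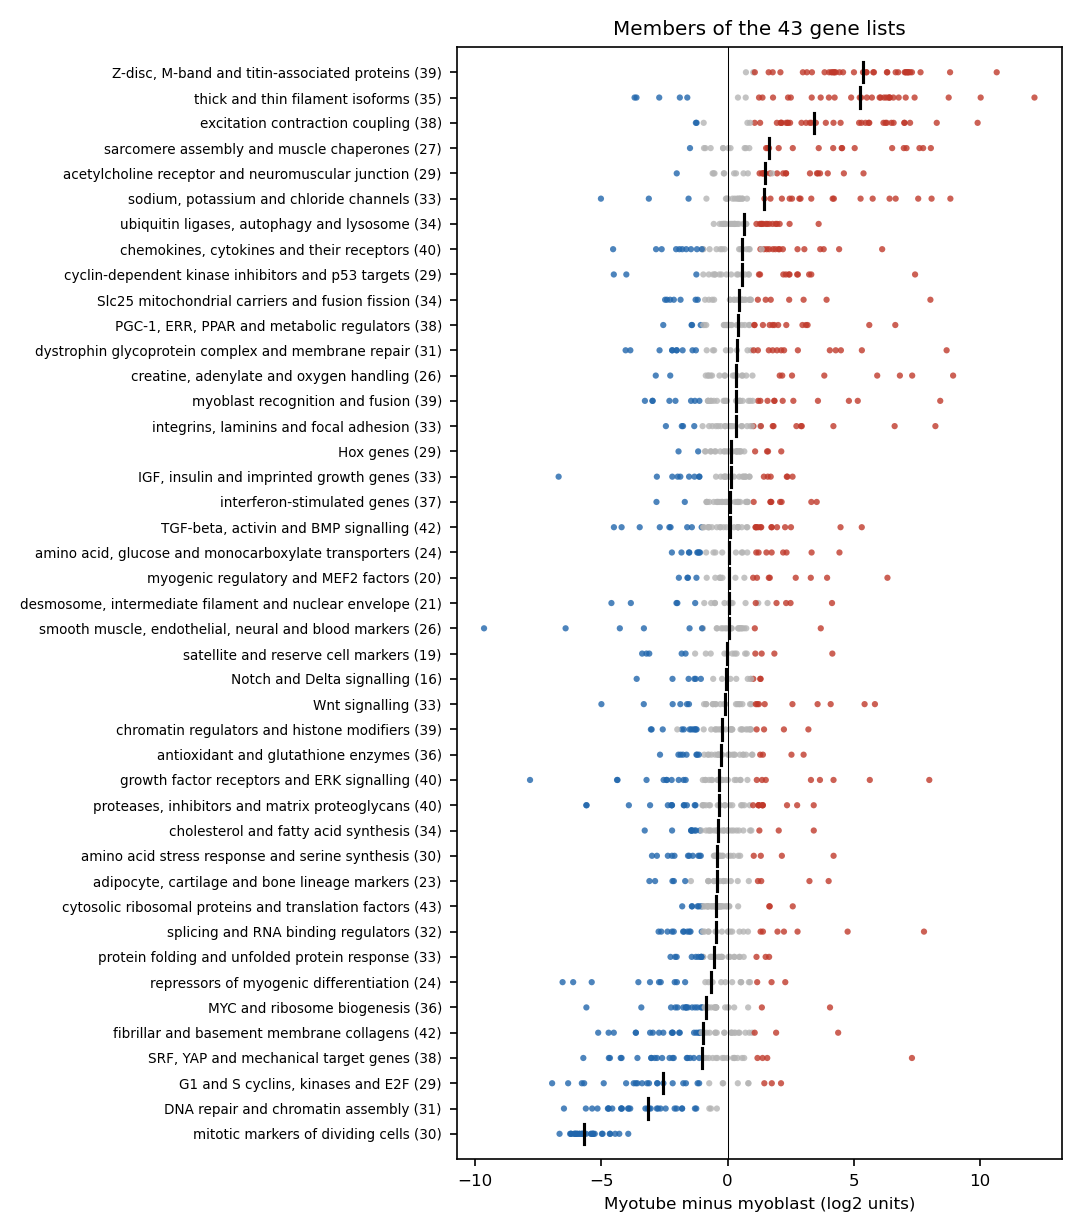
Difference between myotubes and myoblasts (log2 units, horizontal) of every measured member of 43 gene lists, with the number measured in brackets; red points were called higher, blue points lower, grey points not called, and the black bar is the list's median. The Z-disc and filament lists lie at the top with medians above 5, and the mitotic list lies at the bottom with a median of -5.71 and every member called lower.

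Genes of the membrane systems that couple excitation to contraction rose with those of the filaments. Of 38 members, 33 rose and 2 fell (median difference 3.41). The calcium store protein Casq1 rose from 3.67, 3.35 and 3.25 to 13.54, 13.23 and 13.24, a difference of 9.91 ± 0.13, and Casq2 by 7.23. Triadin (Trdn) rose by 8.29, the voltage sensor Cacna1s by 6.49, the release channel Ryr1 by 6.18 and the calmodulin kinase subunit Camk2a by 7.01. The 2 that fell were the inositol trisphosphate receptors Itpr1 (-1.26) and Itpr3 (-1.23), calcium channels found in many cell types; Itpr1 was not called with normexp. Phospholamban (Pln) was above background in neither group.

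At the future neuromuscular junction 18 of 29 members rose and 1 fell (median difference 1.47). The acetylcholine receptor subunit of embryonic muscle, Chrng, rose from 11.32, 11.52 and 11.48 to 16.65, 16.90 and 16.93, or by 5.39 ± 0.13, and Chrnd by 3.97. Chrna1, whose promoter is printed above, was already at 15.58, 15.86 and 15.89 in myoblasts and reached 17.46, 17.54 and 17.37 in myotubes, a rise of 1.68 ± 0.11. Both groups were tight and did not overlap. The neuregulin receptor Erbb3 rose by 4.61, the agrin-receptor kinase Musk by 3.54 and acetylcholinesterase (Ache) by 3.66 from 2 of 3 myoblast arrays above background, a call lost with normexp. Rapsn, the receptor-clustering rapsyn, differed by 0.34 and was not called, and the ETS factor Etv4 fell by 2.02.

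Channels and pumps gave 17 of 33 that rose and 3 that fell (median difference 1.46). The sodium channel subunit Scn3b rose by 8.09 ± 0.10 with 1 of 3 myoblast arrays above background. The small pump regulators moved apart: Fxyd1, phospholemman, rose at least 85.7-fold by a probe below background in myoblasts, with 2 of 3 myoblast arrays above background by another probe, and Fxyd5, dysadherin, fell by 5.02. The calcium-activated potassium channel Kcnn4 fell by 3.12 and the inward rectifier Kcnj15 by 1.55, the latter not called with normexp. Clcn1, the chloride channel of mature fibres, differed by 0.43 ± 0.59 and was not called.

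In the dystrophin complex and the membrane repair machinery 13 of 31 members rose and 10 fell (median difference 0.37). Dmd, which encodes dystrophin, was below background on every myoblast array and at 9.40, 9.65 and 9.81 in myotubes, at least 232-fold higher. The sarcoglycan Sgca rose by 4.05 and the widely expressed Sgce fell by 2.19; Sgcd (0.79) was not called. The muscle calpain Capn3 rose by 4.49. Among genes of caveolae, the non-muscle caveolins Cav1 and Cav2 fell by 4.04 ± 0.07 and 3.85 and the muscle cavin Cavin4 rose by 4.29. The annexins Anxa5 (-2.70), Anxa2 (-2.02) and Anxa1 (-2.01), calcium-dependent membrane-binding proteins, fell.

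Intermediate filament and nuclear envelope genes were split, 5 of 21 higher and 5 lower (median difference 0.05). Desmin (Des) rose by 2.50 and its partner synemin (Synm) by 4.14 ± 0.13, while vimentin (Vim) fell by 1.28. Nestin (Nes) differed by 0.71 and was not called. In the envelope, lamin B1 (Lmnb1) fell from 13.15, 13.30 and 13.25 to 8.58, 8.79 and 8.53, a difference of -4.60 ± 0.10 that left a wide gap between groups, and Tmpo fell by 3.83 and Lbr by 1.99. The nuclear anchors moved apart, Syne1 rising by 2.32 and Syne2 falling by 2.03.

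Isoform exchange was examined in 50 pairs of related genes, 1 labelled widely expressed and 1 labelled muscle. The labels are loose for some genes, such as Gys2, Fbp1 and Aldoc, labelled widely expressed, and Gys1, Hsp90aa1 and Ppp3cb, labelled muscle. The muscle member rose in 43 pairs and was not called in 7; 0 were called lower with limma (2 at an unadjusted p under 0.05, and 1, Hsp90aa1, called lower with normexp). In 46 of 50 pairs its difference lay above that of the partner on all 3 slides. Over all genes, the difference of a single gene had 1 sign, of either direction, on all 3 slides in 86.0%. This is another measure and gives no baseline for the pairs. The widely expressed member fell in 21 pairs, rose in 5 and was not called in 24. A rise of the muscle member together with a fall of the partner was found in 20 pairs. The median difference was 3.75 for muscle members and -0.79 for their partners. The pairs were picked for known muscle expression, so their direction is a description.

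The widest exchange was between caveolins, where Cav1 and Cav3 moved 12.5 log2 units apart. Fxyd5 and Fxyd1, described above, followed. Among fatty acid binding proteins, Fabp5 fell from 7.92, 7.96 and 8.05 to below background on all myotube arrays, at least 37.8-fold lower, and Fabp3 rose by 5.19. The D cyclins exchanged as well, with Ccnd1 at -6.95 ± 0.09 and Ccnd3 at 1.75 ± 0.08. Enzyme pairs included the adenylosuccinate synthases, where Adss fell by 2.85 and Adssl1 rose by 3.83, the glucose transporters, where Slc2a1 fell by 1.52 and Slc2a4 rose by 3.33, and the glycogen phosphorylases, where Pygb fell by 1.19 (not called with normexp) and Pygm rose by 7.10. In the cytoskeleton, filamin Flna fell by 3.57 as Flnc rose by 1.79, and Actn4 fell by 1.48 as Actn3 rose by 4.12. Cytochrome oxidase showed a rise without a matching fall: the muscle subunits Cox6a2 and Cox8b rose by 8.42 and 8.12, and the common subunits Cox6a1 (-0.35) and Cox8a (-0.53) were not called.

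Several pairs departed from this pattern. Atp2a1 and Atp2a2, the calcium pumps of the reticulum, rose by 5.62 and 5.31. Both members of the creatine kinase pair rose, Ckm by 7.32 and Ckb by 2.17, and Utrn, which encodes the dystrophin relative utrophin, rose by 1.27 beside Dmd. The order was inverted for the myosin light chain kinases, where Mylk rose by 5.72 and the skeletal form Mylk2 by 1.25. Cpt1b, the muscle carnitine palmitoyltransferase, differed by 0.26 and was not called although Cpt1a fell by 2.67. The muscle forms Rpl3l (2.58, with 1 of 3 myoblast arrays above background) and Phkg1 (at least 1.98-fold, with 1 of 3 myotube arrays above background) rose from dim probes. With spike-in scaling Utrn, Mylk2 and Phkg1 were not called, and with normexp Rpl3l and Phkg1 were not, the latter also being lost in the authors' values.

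**Figure D4:**
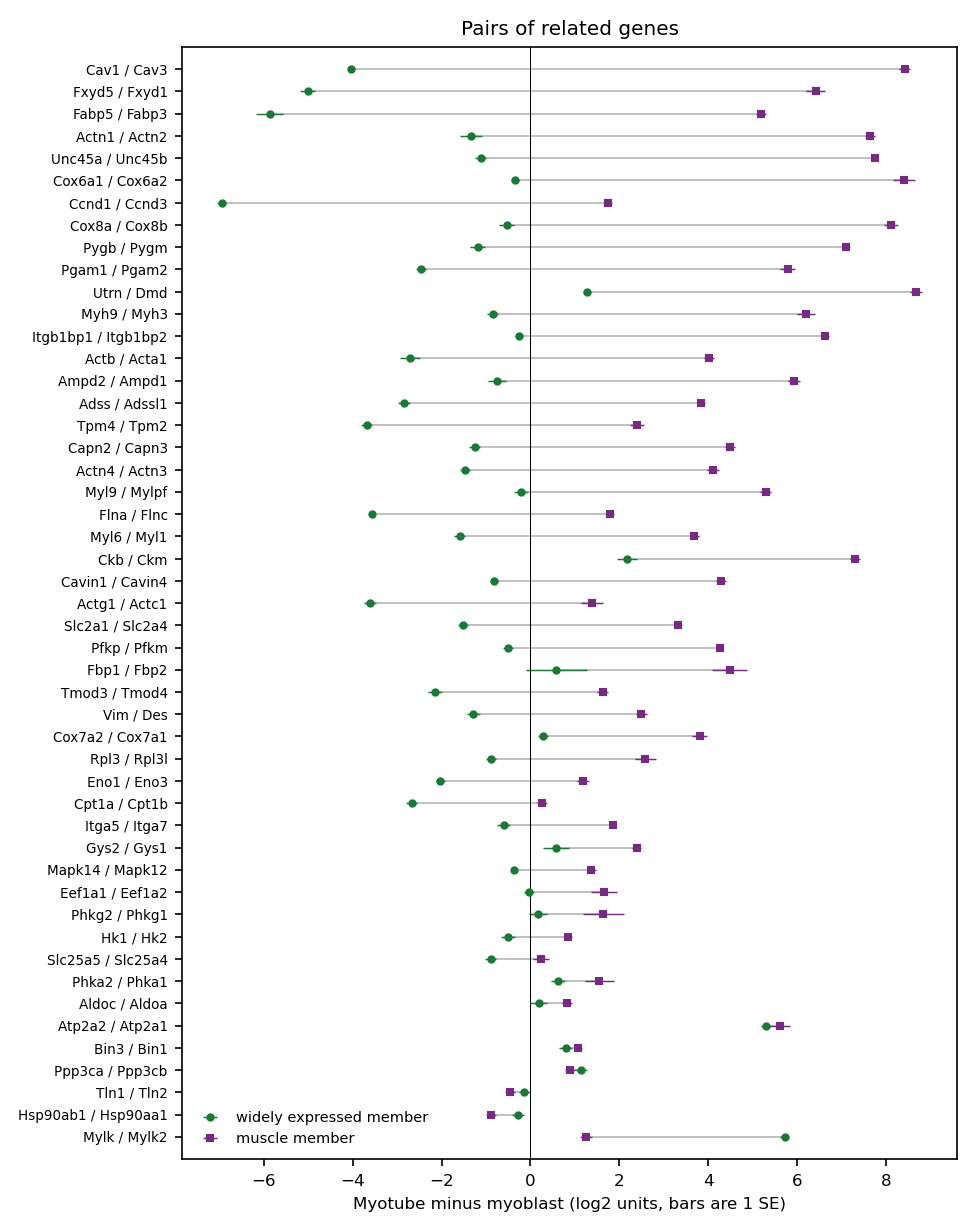
Difference between myotubes and myoblasts (log2 units, horizontal) for 49 of the 50 pairs of related genes, ordered by the distance between the 2 members. Green circles are members labelled widely expressed, purple squares members labelled muscle, and bars 1 standard error of the fit. Cav1 and Cav3 lie farthest apart at the top, and Mylk and Mylk2 at the bottom stand in inverted order.

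Cell cycle genes fell together. All 30 mitotic markers measured fell, against 16.2% of all genes (median difference -5.71), and 28 of 31 genes of DNA repair and chromatin assembly fell (median difference -3.16), the other 3 being lower without being called. Mki67 went from 14.69, 14.88 and 14.94 to 9.09, 9.20 and 9.17, a difference of -5.68 ± 0.10, and the myotube arrays remained above background. Among repair and assembly genes, the exonuclease Exo1 fell by 6.49, the methylation reader Uhrf1 by 5.62, the histone chaperone Chaf1b by 5.37 and the recombination factor Rad54l by 5.16, whereas Xrcc1 (-0.72) was not called. Of 29 G1 and S phase regulators, 20 fell and 3 rose (median difference -2.54). The repressor E2f7 (-6.32), cyclin A2 (Ccna2, -5.78), Foxm1 (-5.68) and Mybl2 (-4.91) fell farthest after Ccnd1. The 3 that rose are Rb1 (2.12 ± 0.08), the retinoblastoma gene, Ccnd3, and E2f6 (1.46), a repressor of the E2F family. Cdk2 (-0.18) overlapped between groups.

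Inhibitors of the cycle and p53 targets gave 11 of 29 that rose and 3 that fell (median difference 0.56). Cdkn1a, which encodes p21, stood at 12.37, 12.47 and 12.77 in myoblasts and at 15.64, 15.95 and 15.97 in myotubes, a rise of 3.32 ± 0.14. The groups lay well apart. Cdkn1b (p27) differed by -0.25 and was not called, and Cdkn3, a phosphatase of cycling cells, fell by 4.51. Gadd45a rose by 3.23, the antiproliferative gene Tob1 by 2.79 and the death receptor Fas by 2.76. Trp63, a p53 relative, was below background in myoblasts and at 10.18, 10.27 and 10.16 in myotubes, at least 173-fold higher, while Trp53 (-0.58) was not called. Perp, a p53 target in adhesion, fell by 4.01.

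Regulators of chromatin were called in 15 of 39 cases (38.5%, against 35.4% of all genes), 11 lower and 4 higher (median difference -0.23). The Polycomb methyltransferases moved apart: Ezh2 fell by 3.01 ± 0.12 and Ezh1 rose by 2.23 ± 0.11 (0.94 and not called with normexp). The histone deacetylases did so too, Hdac7 (-3.04) and Hdac1 (-1.73) falling and Hdac11 (3.20) and Hdac5 (1.45) rising. The methyltransferases of heterochromatin Suv39h2 (-2.57) and Suv39h1 (-1.81) fell.

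Among splicing and RNA-binding regulators 7 of 32 rose and 11 fell (median difference -0.46). Rbfox1, a splicing factor of muscle and brain, rose from 3.64, 4.34 and 4.38 to 11.58, 12.14 and 11.99, or by 7.79 ± 0.23, while Rbfox2 (0.01) was not called. Rbm24, another muscle splicing factor, rose by 4.76 and Rbm38 by 2.23. Ptbp1, a repressor of many muscle and neuronal exons, fell by 2.73, Fmr1 by 2.63 and Srsf10 by 2.20. The mRNA decay factors Zfp36l1 (2.77) and Zfp36l2 (-2.38, above background on 2 of 3 myotube arrays, not called with normexp) moved apart.

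Some genes carried probes that moved in opposite directions. Of 6596 genes with several measured probes, 61 had at least 1 probe called higher and 1 called lower. With only probes above background on every array of both culture groups, 41 of 5468 genes did. Tpm1, which encodes the main tropomyosin and is known for its many splice forms, had probes at chr9:66827296-66828851 and chr9:66831962-66833032 (mm8, minus strand) that rose by 4.39 ± 0.15 and 2.51 ± 0.12, and a probe at chr9:66822206-66822265 that fell by 3.99 ± 0.11. On each slide the falling probe differed by -3.98, -4.09 and -3.91, so the slides gave nearly the same value. Pdlim5, a Z-disc adaptor, had probes at chr3:142240737-142240796 and chr3:142241794-142241853 that rose by 4.23 and 3.72 and probes at chr3:142182292-142182351 and chr3:142182357-142184699 that fell by 3.79 and 3.94. Another Pdlim5 probe (-0.85 ± 0.41) was not called. With the mean over probes neither Tpm1 nor Pdlim5 was called higher.

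The actin-binding protein Synpo2 had 2 probes that rose (3.85 and 3.17) and 2 that fell, 1 by 1.15 and 1 at least 8.43-fold, the latter below background on all myotube arrays; the mean over its probes was not called. The anchoring protein Pde4dip had 5 that rose, the widest by 4.38 and 1 from below background, and 2 that fell, by 2.90 and 3.61. Hjurp, a chaperone of the centromeric histone, had 4 probes that fell, the widest at -3.44, and 1 on the opposite strand at chr1:90089799-90089858 that rose at least 9.12-fold from below background. Where a gene in this text has several probes, its value is that of the brightest. Exon positions in this genome build were not used here. With normexp background correction 16 genes had opposed probes.

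**Figure D5:**
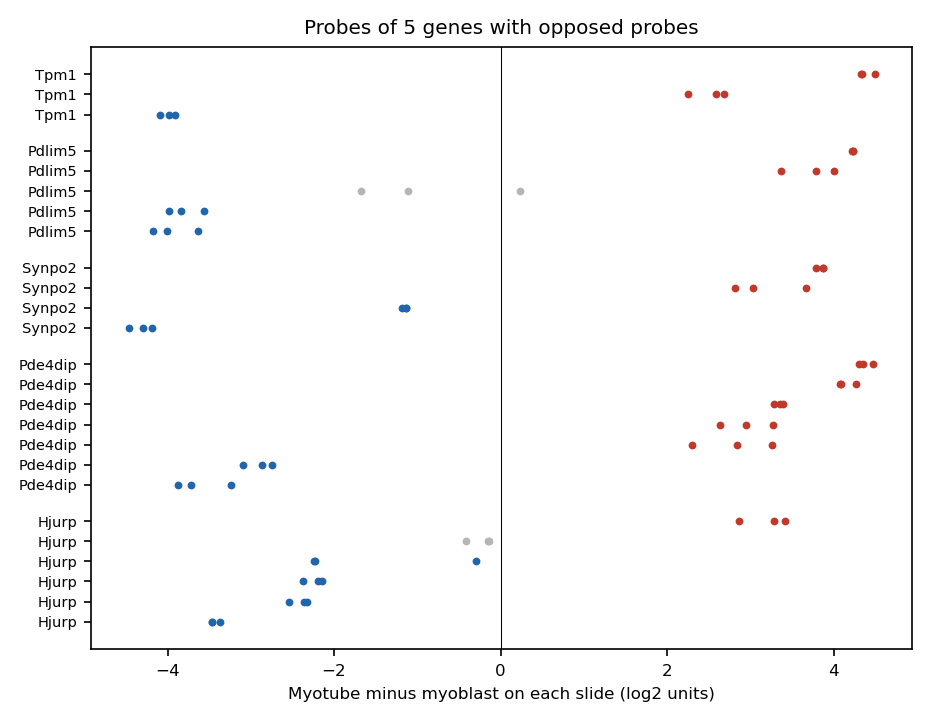
Difference between myotubes and myoblasts on each of the 3 slides (log2 units, horizontal) for every measured probe of the 5 genes with the widest opposed probes, with 1 row per probe; red rows were called higher, blue rows lower and grey rows not called. The 3 points of every called row lie on 1 side of 0, and 1 called Hjurp probe has a slide at -0.29; a probe below background in 1 group, such as the rising Hjurp probe, is drawn at its measured value.

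Of 36 genes of the MYC network and of ribosome biogenesis 15 fell and 2 rose (median difference -0.86). Myc itself was not called, at 11.81, 12.23 and 12.49 in myoblasts and 12.09, 12.55 and 12.68 in myotubes. Its antagonists moved apart: Mxd1 rose by 4.06 ± 0.11 and Mxd4 by 1.36 (not called with spike-in scaling, normexp or the mean over probes), and Mxd3, a form of cycling cells, fell by 5.60. Spermidine synthase (Srm) fell by 3.42 and the nucleolar proteins Gar1 (-2.24), Dkc1 (-2.07) and Nop56 (-1.98) fell. Ribosomal proteins and translation factors were called in 10 of 43 cases (23.3%, against 35.4% of all genes), 7 lower and 3 higher (median difference -0.45). Eif4a1 fell by 1.19 and Eif4a2 rose by 1.67, and Eef1a1 (-0.03) overlapped between groups.

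In lipid synthesis 9 of 34 members fell and 3 rose (median difference -0.40), and the 35.3% called lay near the 35.4% of all genes. The elongase Elovl6 fell by 3.28 and the desaturase Fads1 by 2.20. The carboxylases that make malonyl-CoA moved apart, Acaca, of fat synthesis, falling by 1.44 and Acacb, the mitochondrial form of muscle, rising by 3.42 ± 0.10. Dhcr7, of the last step of cholesterol synthesis, rose by 2.03.

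The amino acid stress response gave 11 of 30 lower and 4 higher (median difference -0.41). Its 2 secreted hormones moved in opposite directions: Gdf15 fell from 13.17, 13.41 and 13.31 to 10.10, 10.37 and 10.44, and Fgf21 rose from 7.99, 8.22 and 7.83 to 12.21, 12.35 and 12.09. The groups of both genes were separated by several times their range. Trib3 fell by 2.11 and the cystathionine lyase Cth by 2.21, while Atf4, which drives the response, differed by -0.31 with overlapping arrays. Transporters were called in 16 of 24 cases, 8 each way (median difference 0.06): the phosphate carrier Slc20a1 fell by 1.83 and Slc20a2 rose by 1.75, and the amino acid transporters Slc43a1 and Slc43a2 moved by -1.53 and 2.20, neither being called with normexp.

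Energy buffering and oxygen storage gave 8 of 26 higher and 2 lower (median difference 0.35), with 38.5% called against 35.4% of all genes. Ckmt2, the mitochondrial creatine kinase of muscle, was below background in myoblasts and at 9.41, 9.81 and 9.72 in myotubes, at least 237-fold higher. Myoglobin (Mb) rose by 6.83 and the AMP deaminase Ampd1 by 5.93, and Ak4 fell by 2.27. Metabolic regulators gave 13 of 38 higher and 4 lower (median difference 0.39). The muscle AMPK subunit Prkag3 rose by 6.65 ± 0.21 and the catalytic subunit Prkaa2 by 3.11, while Prkag2 fell by 1.41. The nuclear receptor gene Esrrb rose at least 34.1-fold by a probe below background in myoblasts, with 2 of 3 myoblast arrays above background by another probe, while the coactivator Ppargc1b (0.43) was not called. The orphan receptor Nr4a2 fell by 2.55. Ak4, Prkag2 and Esrrb were not called with normexp.

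Autophagy and ubiquitin ligase genes rose in 14 of 34 cases (41.2%, against 19.3% of all genes called higher, with a median difference of 0.64). None was called lower with limma (3 were lower at an unadjusted p under 0.05, 0 with normexp). Map1lc3a, which encodes a form of the autophagosome protein LC3, rose by 3.61 ± 0.07, the lipid-binding Wipi1 by 2.06 and the atrophy ligase Fbxo32 (atrogin-1) by 1.28, the last not called with spike-in scaling. Of 34 genes of mitochondrial carriers and dynamics 7 rose and 7 fell (median difference 0.46), so that 41.2% were called against 35.4% of all genes. Pink1, a kinase that marks damaged mitochondria, rose from 9.73, 9.81 and 9.68 to 13.69, 13.72 and 13.59, with no overlap. The citrate carrier Slc25a1 fell by 2.13 and the uncoupling protein Ucp2 rose by 2.44.

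Antioxidant enzymes gave 8 of 36 lower and 4 higher (median difference -0.27), and the 33.3% called lay near the 35.4% of all genes. Srxn1 (-2.68), Nqo1 (-1.86) and Gclm (-1.77), all known targets of the factor NRF2, fell, and Gpx3, an extracellular peroxidase, rose by 3.01. The gene of NRF2, Nfe2l2 (0.62), was not called. Protein folding genes gave 9 of 33 lower and 3 higher (median difference -0.52), with 36.4% called against 35.4% of all genes. The mitochondrial chaperonins Hspd1 and Hspe1 fell by 2.08 and 2.02, Herpud1 rose by 1.51, and the reticulum chaperone Hspa5 (0.03) overlapped between groups.

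Insulin-like growth factor genes and imprinted genes gave 6 of 33 higher and 9 lower (median difference 0.13). Igf2, an autocrine factor of myoblast differentiation, rose from 9.83, 10.07 and 9.98 to 12.14, 12.46 and 12.32, and H19, the noncoding RNA of the same imprinted region, from 14.14, 13.92 and 14.26 to 16.83, 16.59 and 16.62. Their rises were 2.35 ± 0.10 and 2.58 ± 0.11, and neither gene's groups overlapped. Igfbp2, a binding protein of these factors, fell by 6.70 ± 0.19, from 15.92, 16.21 and 16.14 to 9.07, 9.47 and 9.63. The kinase Akt2 rose by 1.59 and Akt1 differed by -0.10. Igf1r (-0.46) was not called.

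In TGF-beta, activin and BMP signalling 13 of 42 members rose and 9 fell (median difference 0.11). Among secreted antagonists, follistatin (Fst), which binds myostatin and activin, rose from 8.28, 9.15 and 8.87 to 12.87, 13.71 and 13.16, or by 4.48 ± 0.26, whereas the BMP antagonist Grem1 fell by 4.51 ± 0.58. Among ligands Gdf5 rose by 5.32 and Tgfb3 by 2.28 and Bmp4 fell by 2.31. The inhibitory Smads Smad6 and Smad7 fell by 1.60 and 1.42, and myostatin (Mstn) rose at least 2.93-fold, with 2 of 3 myotube arrays above background. Smad6 and Mstn were not called with normexp.

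Targets of SRF, YAP and mechanical load fell in 19 of 38 cases and rose in 4 (median difference -1.03). Cnn1, which encodes calponin of smooth muscle, had the largest fall of the list, -5.72 ± 0.08. The actin-binding protein Tagln2 (-4.66) and the clotting initiator F3 (-4.24) fell. The matricellular genes Ccn1 (-0.59) and Ccn2 (-1.62) differed in call. Limch1 rose by 7.31 ± 0.14, and the muscle repeat protein Ankrd1 by 1.19 (not called with spike-in scaling).

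Wnt signalling gave 9 of 33 higher and 6 lower (median difference -0.09), with 45.5% called against 35.4% of all genes. Porcn, the acyltransferase needed for Wnt secretion, rose from 8.25, 8.34 and 8.48 to 13.61, 13.86 and 13.89. Axin2, a feedback target of the pathway, rose by 3.57 ± 0.13, the ligand Wnt9a by 2.57, and the secreted inhibitor Wif1 at least 36.7-fold. The DNA-binding factors Tcf7l2 (-2.18), Tcf7l1 (-1.87) and Lef1 (-1.61) fell, and the inhibitor Dkk2 fell by 5.00 with 1 of 3 myotube arrays above background.

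Growth factor receptors and the ERK pathway gave 11 of 40 lower and 8 higher (median difference -0.32). Fosl1, a subunit of AP-1, fell by 4.38 while Map2k6, a kinase of the p38 pathway, was at -4.36 with 2 of 3 myotube arrays above background, and its muscle substrate Mapk12 rose by 1.37, a call lost with spike-in scaling. Fgf13 rose at least 194-fold by a probe below background in myoblasts, with 1 of 3 myoblast arrays above background by another probe, and Fgf5 by 3.30. The atypical phosphatases Dusp13 (3.66), Dusp27 (4.20) and Dusp26 (at least 28-fold) rose, and Dusp4, an ERK phosphatase, fell by 2.54. Fgf2 (0.35 ± 0.90) was not called.

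Collagens and related matrix genes fell in 20 of 42 cases and rose in 3 (median difference -0.98). Col6a3, a chain of the microfibrillar collagen VI, went from 14.23, 14.26 and 14.33 to 9.59, 9.47 and 9.61, the groups lying far apart. Col6a3 fell by 4.72 ± 0.08, whereas its partner chains Col6a1 (0.17) and Col6a2 (0.47) were not called. The basement membrane chain Col4a1 (-3.64) and the crosslinking enzyme Loxl2 (-4.51) fell, and the transmembrane collagen Col23a1 rose by 4.38 from 2 of 3 myoblast arrays above background. Fibroblast markers moved with this list in part: Col1a1 and Col1a2 fell, Dcn and Pdgfra rose, and the list's summed level went from between 16.1 and 16.6 to between 13.9 and 14.2, with 2 of 6 markers higher, 2 lower and Thy1 above background on no culture array. The rise of Pdgfra was not called with spike-in scaling, normexp, quantile normalization or the authors' values, nor that of Dcn with spike-in scaling. The part of such cells in the change of matrix genes was not tested.

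Integrins and laminins gave 10 of 33 higher and 4 lower (median difference 0.33), with 42.4% called against 35.4% of all genes. Itga9 rose at least 208-fold by a probe below background in myoblasts, with 2 of 3 myoblast arrays above background by another probe, the muscle chaperone melusin (Itgb1bp2) by 6.62, and Itgb6 by 2.94, while the hyaluronan receptor Cd44 fell by 2.45 and the laminin chain Lamb1 by 1.77. Among proteases, inhibitors and proteoglycans 13 of 40 fell and 10 rose (median difference -0.36). Of the urokinase system, the receptor Plaur (-5.59 ± 0.11), the enzyme Plau (-3.07) and the inhibitor Serpinb2 (-5.60) fell. Mmp15, a membrane metalloprotease, rose by 3.41 ± 0.07 and Mmp2 (-0.69) was not called.

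Cytokine genes were called in 25 of 40 cases, with 15 higher and 10 lower (median difference 0.58). Il15, a cytokine abundant in muscle, rose from 3.23, 3.07 and 3.05 to 9.24, 9.28 and 9.21, with little spread in either group. Il6 rose from 6.63, 6.69 and 6.65 to 10.35, 10.39 and 10.25, and Socs3, a feedback inhibitor of this cytokine family, by 4.42 ± 0.07. The chemokine Cxcl12 fell by 4.54 ± 0.08, while its receptor Cxcr4 also fell, and the growth factor Csf1 fell by 2.83. Interferon-stimulated genes were called in 10 of 37 cases, 8 higher and 2 lower (median difference 0.11), with Igtp rising by 3.53 and Rsad2 falling at least 3.06-fold; Isg15 (0.72) was not called. Cxcr4 and Rsad2 lost their calls with normexp.

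Genes of neighbouring mesenchymal lineages gave 5 of 23 lower and 4 higher (median difference -0.42), with 39.1% called against 35.4% of all genes. The bone factor Runx2 fell by 3.10 ± 0.08 and Col2a1 of cartilage by 2.87, while osteocalcin (Bglap) rose by 3.25 and Alpl by 4.01, the latter measured above background on 1 of 3 myoblast arrays. Adipoq of fat cells was above background on no culture array. In the list of smooth muscle, endothelial, neural and blood markers 6 of 26 fell and 2 rose (median difference 0.04), and the 4 that fell farthest are neuronal: neurofilament light chain (Nefl) went from 12.99, 13.33 and 13.15 to 3.18, 3.57 and 3.76, with 2 of 3 myotube arrays above background, the largest fall of the comparison at -9.65 ± 0.31. Nefm fell by 4.27, Tubb3 by 3.32 and Gap43 at least 42.1-fold. Of the list that holds these neuronal genes 30.8% were called, against 35.4% of all genes. Hox genes were called in 6 of 29 cases (20.7%), 4 higher and 2 lower (median difference 0.14); Hoxb6 rose by 2.13 and Hoxa5 fell by 1.17. Neither of these Hox genes nor Alpl was called with normexp.

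Outside the lists, the largest rises among genes measured on all culture arrays included several muscle genes. Art1, a surface ADP-ribosyltransferase, rose by 8.72 ± 0.11, Abra, an actin-binding protein of striated muscle, by 8.45, Coq8a of coenzyme Q synthesis by 7.96, Pgm5 by 7.94 and Txlnb by 7.68 ± 0.06. Others are not usually named for muscle: the heavy chain gene Ighm rose by 8.82, the phosphatase gene Inpp4b by 7.84, the gap junction gene Gja5 by 7.60 and Tnfrsf19, a receptor of the TNF family, by 7.52. Among the largest falls, Kif18b (-6.59), Sgo1 (-6.35), Ska1 (-6.33), Kif14 (-6.24) and Ncapg (-6.07) act in mitosis, and Prl2c5 (-6.40) and Prl2c3 (-6.23) are near copies of the proliferin genes whose probes may share signal.

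Among genes with the largest lower bounds, Lrtm1 rose at least 718-fold, Isx, an intestinal homeobox gene, at least 681-fold, Lrrc2 at least 609-fold, Slc44a4 at least 363-fold and Pkhd1, the gene of fibrocystin, at least 356-fold, all from below background in myoblasts. In the other direction the homeobox gene Dlx2 fell at least 166-fold, Hhip, which binds hedgehog proteins, at least 92.2-fold and Car8 at least 85.2-fold. At the other end of the scale, the brightest unlisted genes with a difference under 0.25 included Rplp1 (-0.07), Atp5b (0.14) and Rps12 (-0.14). A few calls varied widely between slides. Plg, below background on all myoblast arrays by the probe used, stood at 6.23, 6.31 and 3.45 on myotube slides 1, 2 and 3, at least 9.09-fold higher, with slide 3 lowest. Without slide 1 or slide 2 it was not called (limma adjusted p = 0.073 and 0.065), nor was it with normexp or the authors' values. Asb10, below background on all myoblast arrays, stood at 4.84, 8.49 and 4.74, at least 18.2-fold higher, with slide 2 highest, and was not called with normexp.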

How the data were processed

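RNA of 6 culture arrays (3 myoblast, 3 myotube) and of 6 adult muscle arrays was read on 1-colour Agilent arrays. Per the file headers, Feature Extraction made the deposited processed signal, an intensity after background subtraction, for each spot. The authors' deposited value table, whose scale and normalization the sources used here do not state, was put on the log2 scale and used as an alternative. Signals of 41174 non-control probes were put on the log2 scale and scaled to the 75th percentile of each array. A probe stayed in (28617 did) where every array of 1 or more of the 4 groups showed it well above background, and the probe with the highest mean over 12 arrays stood for its gene (18868 genes). limma 3.58.1 in R 4.3.3 was fitted to 4 group means on 12 arrays with Benjamini-Hochberg adjustment. Calls needed an adjusted p below 0.05 together with a log2 difference of 1 or more in size. For a gene or probe above background on no array of 1 culture group, a lower bound stands in place of the fold.

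Same-numbered arrays share a slide, per the file headers, and deviated together (correlations 0.60, 0.38 and 0.48), so the numbers pair the arrays. The main fit left this pairing out, and the replicate block, an alternative given below, uses it. Slide 1 was scanned on another day than slides 2 and 3, per the file headers. Nothing in the labels says whether same-group arrays came from separate cultures, so p-values measure the spread between these arrays. Their number limits the precision. On simulated data (18769 genes) the test recovered 76%, 72%, 96% and 98% of changes of 1.5, 2, 3 and 4 log2 units. There were 7 false calls among 18569 unchanged genes. The simulation used independent noise without slide effects and changed 50 genes at each size. In the data 63.7% of genes had an adjusted p under 0.05 (limma) and arrays of a slide deviated together. The simulated rates therefore need not hold for the data.

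The members and the 43 gene lists were chosen with earlier results of these data known. Genes are named by rule: in each list, the 5 widest calls each way and the first measured member not called, all measured myogenic, MEF2, repressor and satellite cell genes, the related pairs, the 15 highest and 15 lowest unlisted genes, the 10 largest lower bounds each way, the 5 widest opposed probes, the 5 brightest unlisted genes with a difference under 0.25, and the 5 genes that vary most between slides; other genes named were chosen after their values were seen. Some genes that the rule picks are not reported here. Of 41174 probes, 24375 were named by matching their accession to RefSeq genes, and 8059 kept the array design's name, which can be old. The rest were matched by symbol, synonym or another accession. Coordinates are those of mm8, and promoters come from RefSeq (GRCm38.p6). Alternatives were quantile normalization, spike-in scaling (8 probes), normexp background correction (offset 50), the authors' values, 2 other filters, the mean over probes, the culture arrays alone, a replicate block, and leaving out arrays and slides.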

Additional observations from a re-analysis of the deposited data

How the results depend on the processing

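The count of 6686 called genes lay between 6372 and 6700 when 1 array or 1 slide was left out, with 3426 to 3761 higher and 2899 to 3110 lower. With the replicate block it was 6819 on 12 arrays and 6817 on the 6 culture arrays, and the replicate block changed no call among the 313 called genes named. Of the 45 named genes that were not called, the block brought 2 over the limits on 12 arrays and 1 on the 6 culture arrays. Normexp background correction gave 3735 calls, 1876 higher and 1859 lower, and 16 genes with opposed probes in place of 61. Spike-in scaling gave 2357 higher genes. The cause of these differences was not tested. No filter on dim probes gave 7052 calls of 27595 genes, and the mean over probes 6568. All 313 called genes named had 1 sign on all 3 slides, and 267 kept the call under every tested alternative; 31 lost it with normexp and 16 with spike-in scaling, as given beside each gene. Where probes of a gene oppose each other, the mean over probes turned Pdlim5 to -0.13 and Tpm3 to 0.47.

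Genes that were not called and lay near 0 changed sign. With spike-in scaling Atp5b was at -0.227, Col6a1 at -0.205, Cpt1b at -0.110, Eya3 at -0.060, Fgf2 at -0.023, Hspa5 at -0.341, Myc at -0.109, Rapsn at -0.036 and Rbfox2 at -0.359. With quantile normalization Eef1a1 was at 0.066, Hspa5 at -0.011 and Rbfox2 at -0.0099; with normexp they were at 0.071, -0.018 and -0.037. The authors' values gave Atp5b at -0.0093 and Hspa5 at -0.118, and the mean over probes Cpt1b at -0.185. With 1 array or slide left out, the range went from -0.128 to 0.0446 for Eef1a1, from -0.25 to 0.0655 for Hes1, from -0.0363 to 0.107 for Hspa5, from -0.0959 to 0.095 for Rbfox2 and from -0.178 to 0.0201 for Rplp1.

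Leaving out 1 array or slide ended the call of 7 named genes: Dll4 (1.12 without slide 2, 1.05 without slide 3), Eya4 (0.93 to 1.00), Nrarp (0.91 to 0.98), Phkg1 (1.66 without slide 1), Plg (without slide 1 or slide 2), Slc20a2 (1.68 without slide 3) and Vgll2 (-0.87 without the second myotube array). It brought Id4 (1.05), Myocd (-1.12) and Myoz3 (1.38) over the limits.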

Other observations

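The same arrays included extensor digitorum longus (EDL) and soleus muscle of adult mice, in which genes called in the cultures were looked up. Of the 3634 genes called higher in myotubes, 2930 (80.6%) were well above background on all EDL and soleus arrays and 179 (4.93%) on none of them. Of the 3052 genes called lower, 2237 (73.3%) were above background on all and 278 (9.11%) on none. Over all genes tested the shares were 80.9% and 3.47%, and detection in adult muscle was itself a way for a gene to enter the test. Among genes not called the shares were 82.9% and 1.63%. No test was made of these shares. The lowest level well above background was 2.65 to 4.42 on the adult muscle arrays and 1.56 to 3.38 on the culture arrays. Detection in adult muscle and in culture is thus not on equal terms.

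The brightest of the 179 genes, chosen after their values were seen, were not known muscle structural genes. Gsta2, a glutathione transferase, stood at a mean of 13.8 in myotubes, 3.54 above myoblasts, against means of 3.26 in EDL and 3.97 in soleus, below background there. Fgf21, an endocrine fibroblast growth factor, stood at 12.2, 4.20 above myoblasts. Serpinb7, a serine protease inhibitor, stood 7.36 above myoblasts, and Atp6v1c2, a subunit of the vacuolar proton pump, 6.49 above. The homeobox gene Isx was below background in myoblasts and at 11.4 in myotubes, at least 681-fold higher, and the choline transporter-like gene Slc44a4 was at least 363-fold higher. Cultured cells and whole muscle differ in cell makeup and in age, so these levels are a description of the arrays.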
